A study of Homo sapiens with 4 samples.

Results

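The peroxiredoxins PRDX1 to PRDX6, thioredoxin (TXN), the superoxide dismutases SOD1 and SOD2 and catalase (CAT) were followed through the ribosome profiling tables by gene name, a set of 10 antioxidant genes chosen by what they encode. Of these, 8 were found, each as a single transcript listed in all 4 tables, among 9271 transcripts in the series. PRDX2 and SOD2 were not analysed here. For every member, ribosome protected fragments (RPFs, the pieces of mRNA that a ribosome shields from nuclease) were examined in the coding sequence (CDS), in the 3′UTR after the normal termination codon (NTC), and in the 5′UTR.

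The cells were HEK293T, a human embryonic kidney line that carries the large T antigen of simian virus 40. There were 2 libraries of untreated cells (biological replicates A and B, 0 µg/mL) and 2 from cells given 500 µg/mL G418 (replicates A and B) for 24 hr. G418 is an aminoglycoside antibiotic that acts on the ribosomal decoding center, and no transgene or deletion separates the groups. Reads on mRNAs ranged from 2440204 in untreated replicate B to 6082600 in untreated replicate A, and reads lying past the NTC but not past the next in-frame stop codon (the first 3′TC) ranged from 4041 to 76369. Of the markers of the line, VIM lay at 533 to 658 RPKM, KRT18 at 26.7 to 29.4 RPKM, KRT8 at 1.45 to 2.13 RPKM and LHX1 at 1.60 to 2.60 RPKM, while PAX2 was listed in 2 of the tables. The leukocyte, hepatocyte and erythroid markers PTPRC, CD3E, ALB and HBB were listed in none, and COL1A1 was listed in all 4 at 3.59 to 5.54 RPKM. An exact two-sided permutation test of a single value cannot give a p below 0.333 with 2 libraries against 2, so calls come from edgeR's quasi-likelihood test fitted over all transcripts.

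Peroxiredoxins are abundant enzymes that reduce hydrogen peroxide and other peroxides with a reactive cysteine, and most of them are returned to the reduced form by thioredoxin. Superoxide dismutases make hydrogen peroxide from superoxide, and catalase breaks hydrogen peroxide down in peroxisomes. The members differ in where they work: PRDX1 and PRDX6 act mainly in the cytosol, PRDX3 in mitochondria, PRDX4 in the endoplasmic reticulum, and PRDX5 in mitochondria, peroxisomes and the cytosol.

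The members end in different stop signals, which set the context for their readthrough. PRDX1, PRDX4, PRDX5 and CAT carry UGAG, PRDX3 carries UAGA, PRDX6 carries UAAG, SOD1 carries UAAA and TXN carries UAAU (the stop codon and the next base). The mRNA around the NTC is printed for 6 members, 5′ to 3′, with 6 nt of CDS before the NTC and 21 nt of 3′UTR after it, because these letters are what a ribosome meets on reading through. Capitals mark the NTC and, where it falls inside the window, the first in-frame 3′TC. The sequences come from GENCODE version 44 (GRCh38), in which the 4 nt stop signal of these 6 transcripts equals the deposited one, and each NTC and its 3′UTR lie in the last exon.
PRDX1: cagaagUGAgcgcugggcuguuuuagugcc
PRDX6: cagccuUAAgucucuuggagaagcuggugc
PRDX3: aaucagUAGaucacccauguguaucugcac
PRDX4: cugaauUGAgaaauacuucuucaaguuaug
PRDX5: cagcucUGAggcccugggccagauuacuuc
TXN: uuagucUAAucauguuuucugaaaauaUAA

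On hg38, the NTCs lie at chr1:45511329-45511331 (minus strand) for PRDX1 and chr1:173487861-173487863 (plus strand) for PRDX6. They lie at chr10:119168480-119168482 (minus strand) for PRDX3, chrX:23686333-23686335 (plus strand) for PRDX4 and chr11:64321689-64321691 (plus strand) for PRDX5. For TXN the NTC is at chr9:110244157-110244159 (minus strand). The CAT gene spans chr11:34438934-34472060 (plus strand).

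The distance from the NTC to the first in-frame 3′TC differs widely among the members. That 3′TC begins 15 nt after the NTC in SOD1 and 18 nt after it in TXN, where it falls inside the printed window. It begins 30 nt after the NTC in PRDX3, 39 nt in PRDX4, 72 nt in PRDX6 and 252 nt in PRDX1. PRDX5 has no in-frame 3′TC in its 3′UTR of 120 nt. The authors left out the first 6 nt after the NTC. Where the position of the 3′TC is given here, the counted length includes its 3 nt. Readthrough was thus counted over 12 nt in SOD1, 15 nt in TXN, 27 nt in PRDX3 and 36 nt in PRDX4. It was counted over 69 nt in PRDX6, 183 nt in CAT and 249 nt in PRDX1. Reads called before the 3′TC are those of this stretch, so ribosomes at that stop codon can be among them. For PRDX5 the deposited length was 108 nt although the counted 3′UTR has 114 nt.

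The first question was how strongly each gene was translated and whether G418 changed that. Levels are compared between genes as RPKM, which corrects for CDS length and library totals. The fitted changes use edgeR's TMM scaling instead, and with library totals alone the median change of all transcripts moved from 0.00 to 0.11. Whether CDS levels overlapped between conditions was judged in RPKM, so it can differ on the scale of the fit. In untreated cells the order was PRDX1, TXN, SOD1, PRDX6, PRDX3, PRDX4, PRDX5 and CAT, and the order was the same in G418-treated cells. No neighbours in this order had overlapping ranges in either condition. PRDX1 had a higher untreated CDS density than 99.7% of the 6514 transcripts with enough mRNA reads to rank, TXN than 99.4% and SOD1 than 98.5%. CAT, at the low end, exceeded 61.2% of them.

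**Figure D1:**
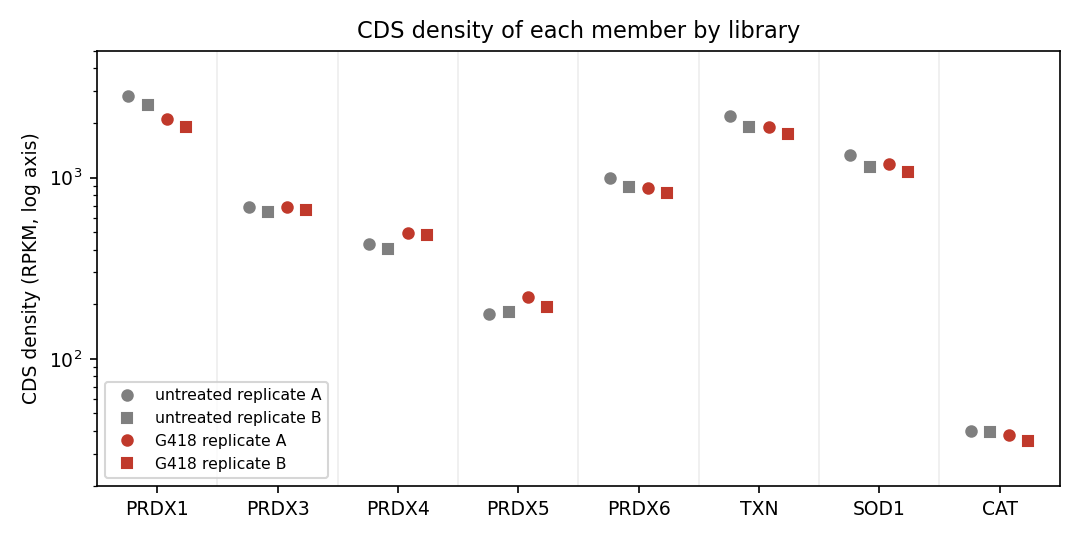
CDS density in RPKM (log axis) of the 8 members, with 1 point per library, grey for untreated and red for G418, circles for replicate A and squares for replicate B. PRDX1 leads at 1907 to 2799 RPKM and CAT lies lowest at 35.3 to 39.9 RPKM.

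PRDX1 RPF density fell under G418. It was 2799 and 2510 RPKM in the untreated libraries (A, then B) and 2094 and 1907 RPKM in the G418 libraries. Both treated libraries lay below both untreated ones, with means of 2655 ± 204 and 2000.4 ± 133 RPKM (SD, n = 2). The fitted change in CDS reads was -0.48 on the log2 scale (SE 0.08, edgeR adjusted p = 0.000106), or 0.717 of the untreated level. PRDX1 was the only member called lower, against a background of 3.21% of 8494 transcripts tested. No member was called higher, against 5.31% of transcripts, and none was higher at an unadjusted p under 0.05 or called higher by DESeq2. At that unadjusted level in edgeR, 4 members were lower (PRDX1, TXN, PRDX6 and SOD1), and the share of all transcripts was not counted. Log2 changes were below 0 in 6 of the 8 members and in 49.6% of all transcripts tested. The PRDX1 call was lost without G418 replicate A (log2 change -0.50, edgeR adjusted p = 0.0617) and without G418 replicate B (-0.47, adjusted p = 0.101). GENCODE names 1 pseudogene after PRDX1, 7 after TXN, 4 after PRDX3, 3 after SOD1, 1 each after PRDX4 and PRDX5, and none after PRDX6 or CAT, and reads that matched several places were kept at a single position by the authors, so levels of these genes are uncertain to that extent.

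The other cytosolic enzymes had smaller differences that did not pass the test. TXN had 2178 and 1894 RPKM in the untreated libraries and 1892 and 1744 RPKM in the G418 libraries, where the lower untreated and the higher treated value nearly met. Its fitted log2 change was -0.24 (SE 0.08, edgeR adjusted p = 0.0643). PRDX6, which has a single reactive cysteine and relies on glutathione, gave 989 and 885 RPKM untreated against 879 and 821 RPKM with G418. Its groups did not overlap, and the log2 change was -0.21 (SE 0.08, edgeR adjusted p = 0.0945). SOD1, the cytosolic copper and zinc superoxide dismutase, gave 1335 and 1137 RPKM against 1193 and 1069 RPKM. Its groups overlapped in RPKM, and the fitted log2 change was -0.20 (SE 0.08, edgeR adjusted p = 0.123). Scaled by library totals alone, as RPKM is, the SOD1 change was -0.10. Without untreated replicate A, then without untreated replicate B, the log2 change was -0.19 and -0.28 for TXN, -0.19 and -0.23 for PRDX6, and -0.14 and -0.26 for SOD1.

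Among the peroxiredoxins of organelles, none was called. PRDX3, of mitochondria, gave 687 and 648 RPKM untreated and 691 and 660 RPKM with G418, interleaved values with a log2 change of -0.06 (SE 0.08, edgeR adjusted p = 0.740). This sign turned to 0.05 when libraries were scaled by their totals alone, which moved the median change of all transcripts from 0.00 to 0.11. PRDX4, of the endoplasmic reticulum, gave 433 and 402 RPKM untreated and 495 and 484 RPKM with G418, with both treated libraries above both untreated ones. Its log2 change was 0.16 (SE 0.08, edgeR adjusted p = 0.255), and it was called higher when scaled by totals alone (0.26, adjusted p = 0.0314). PRDX5 gave 176 and 182 RPKM untreated and 218 and 194 RPKM with G418, without overlap, and a log2 change of 0.13 (SE 0.10, edgeR adjusted p = 0.445). Without untreated replicate A, then without untreated replicate B, the log2 change was 0.15 and 0.16 for PRDX4 and 0.04 and 0.21 for PRDX5. CAT gave 39.9 and 39.5 RPKM untreated and 38.1 and 35.3 RPKM with G418, again without overlap, and a log2 change of -0.18 (SE 0.11, edgeR adjusted p = 0.339). Over the 8 members the median log2 change was -0.19, beside 0.00 over all transcripts tested. Whether fewer RPFs came from less mRNA or from less translation of each mRNA cannot be told apart in RPF counts, nor can a change per cell from a change in the cells sampled.

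Calls in CDS reads among genes that serve the same chemistry stand beside backgrounds of 5.31% of all transcripts higher and 3.21% lower. Of 12 measured members of the thioredoxin system, none was called higher and 1 lower, with a median log2 change of 0.02. The gene that fell was TXNIP, which binds and inhibits thioredoxin, at 28.3 and 23.8 RPKM untreated and 20.03 and 17.5 RPKM with G418 (log2 change -0.56, SE 0.14, edgeR adjusted p = 0.00936). Of 13 measured members of the glutathione system, 1 rose and 1 fell. GLRX5, a mitochondrial glutaredoxin for iron-sulfur cluster assembly, rose from 62.2 and 59.5 RPKM to 106 and 87.2 RPKM (log2 change 0.60, SE 0.13, edgeR adjusted p = 0.00311). GSTP1, a glutathione transferase, fell from 646 and 717 RPKM to 583 and 561 RPKM (log2 change -0.32, SE 0.09, edgeR adjusted p = 0.0202).

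Among 12 measured genes of the NRF2 pathway, the transcriptional response to oxidants, none was called higher and 1 was called lower. That gene was TKT, the transketolase of the pentose phosphate pathway, at 379 and 387 RPKM untreated and 335 and 324 RPKM with G418 (log2 change -0.29, SE 0.08, edgeR adjusted p = 0.0231). The heme oxygenase gene HMOX1 gave 45.7 and 44.1 RPKM untreated and 42.0 and 35.5 RPKM with G418 (log2 change -0.28, SE 0.13, edgeR adjusted p = 0.177). KEAP1, the repressor of NRF2, gave 25.6 and 26.2 RPKM untreated and 28.6 and 27.96 RPKM with G418 (log2 change 0.07, SE 0.11, edgeR adjusted p = 0.783). None of the 3 measured superoxide dismutase partners (CCS, PARK7 and ATOX1) was called in either direction. The calls of TXNIP, GLRX5, GSTP1 and TKT were each lost with DESeq2 and without either G418 library. TXNRD1, SRXN1, NQO1 and NFE2L2 were not analysed here.

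The next question was how often ribosomes passed the NTC. The ribosome readthrough score (RRTS) is the RPF density from the NTC up to the next in-frame stop codon as a percentage of the CDS density of the same transcript. The authors reported that 3′UTR reads of untreated cells did not keep the frame of the CDS, but those of G418-treated cells did. Untreated RRTS therefore need not measure readthrough, and the frame of the members' reads was not tested. RRTS rose with G418 in 7 of the 8 members, against a background of 82.6% of 2827 transcripts called higher and 0.0707% called lower. The share among members was near this edgeR background. DESeq2 called 1731 of the 2827 transcripts higher, and again 7 members. Of the 8, PRDX1 and TXN would have met the minimum of 10 reads on their untreated reads alone, and the other 6 met it only with their G418 reads, so the count is a description. TXN was the member not called. With G418 the order of mean RRTS was CAT, PRDX4, PRDX5, PRDX3, PRDX1, SOD1, PRDX6 and TXN, and the neighbours PRDX4 and PRDX5, and PRDX6 and TXN, had overlapping ranges.

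**Figure D2:**
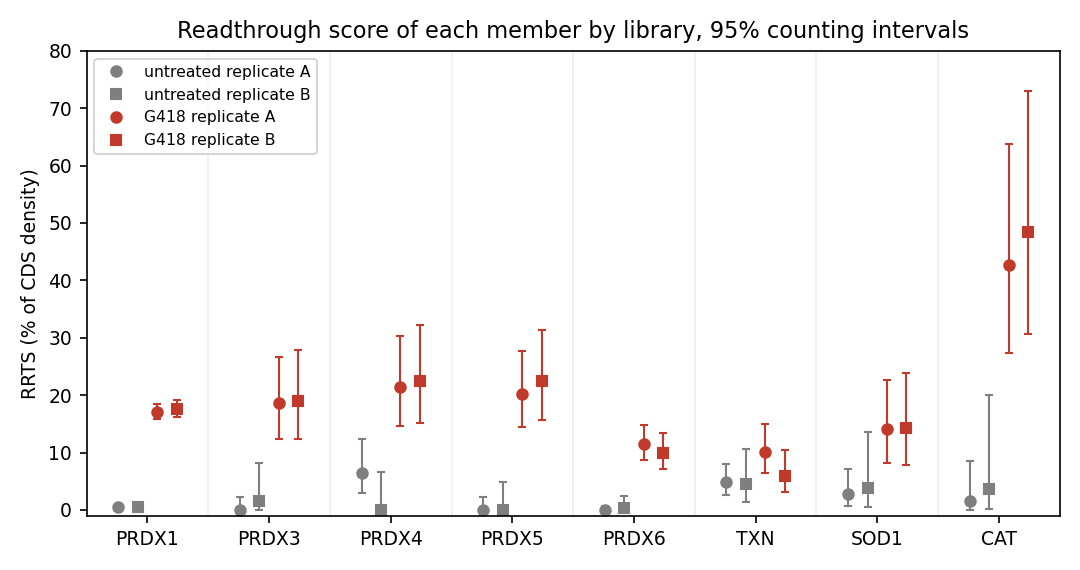
RRTS of the 8 members as a percentage of CDS density, with 1 point per library (grey untreated, red G418, circles replicate A, squares replicate B) and 95% exact binomial intervals, which cover counting error only. CAT lies highest with G418 at 42.7% and 48.4%. TXN has the lowest mean, at 10.1% and 5.98%, with a range that overlaps that of PRDX6.

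PRDX1 gave the most precise value because of its long window and high expression. It had 34 and 12 reads past the NTC in the untreated libraries, an RRTS of 0.546% and 0.494%, and 747 and 642 reads with G418, an RRTS of 17.1% and 17.6%. The means were 0.520% ± 0.037 and 17.4% ± 0.387 (SD, n = 2), and the treated libraries lay far above the untreated ones. Readthrough reads per CDS read rose 32.6 times (95% exact interval of the pooled reads 24.3 to 44.8), a fitted log2 change of 5.02 (SE 0.16, edgeR adjusted p = 5.8e-201). Even so, the pooled G418 RRTS of PRDX1 exceeded that of only 44.1% of the 1378 transcripts that share its UGAG signal, whose median was 20.02%.

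The other UGAG members, CAT, PRDX4 and PRDX5, had higher scores than PRDX1 with G418. The pooled 95% exact intervals of PRDX4 (16.8 to 28.1%) and PRDX5 (16.7 to 26.7%) overlapped that of PRDX1 (16.4 to 18.3%), however. CAT had 1 read in each untreated library and 25 and 24 reads with G418, so that its RRTS went from 1.54% and 3.56% to 42.7% and 48.4%. Its pooled G418 RRTS of 45.3% (95% exact interval 33.3 to 60.5) exceeded 85.6% of UGAG transcripts. PRDX4 had 9 reads in untreated replicate A, none in replicate B, and 32 and 30 reads with G418, or 6.47% and 0% against 21.4% and 22.5%. Taken as a limit of 3 reads, the 0 in untreated replicate B allows an RRTS of up to 5.34%, and by the two-sided 95% exact interval up to 6.57%, which overlaps the interval of untreated replicate A (2.96 to 12.3%). PRDX5 had no read in either untreated library and 40 and 36 reads with G418, an RRTS of 20.3% and 22.4%. The 95% exact lower limit of its pooled ratio of G418 to untreated readthrough per CDS read was 13.8. Against a floor of 3 reads over both untreated libraries, which leaves the counting error of the G418 reads aside, PRDX5 was at least 17.4-fold higher, and against 3 reads in untreated replicate B alone at least 5.41-fold higher.

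Pooled over replicates, CAT readthrough per CDS read was 21.1 times higher with G418 (95% exact interval 5.55 to 179) and PRDX4 readthrough was 4.75 times higher (2.35 to 10.9). The fitted log2 changes were 4.25 for CAT (SE 0.69, edgeR adjusted p = 6.2e-09) and 2.23 for PRDX4 (SE 0.47, edgeR adjusted p = 7.6e-06), and PRDX5 was also called higher (edgeR adjusted p = 3.6e-15). The G418 ranges of PRDX4 and PRDX5 overlapped, while CAT lay above both.

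PRDX3 and PRDX6 had 1 untreated read each, so their untreated level was poorly measured. Pooled over the untreated libraries, RRTS was 0.428% for PRDX3 (95% exact interval 0.0108 to 2.39) and 0.118% for PRDX6 (0.00299 to 0.658). PRDX3, with UAGA, had no read in untreated replicate A, 1 in replicate B, and 29 and 26 reads with G418, an RRTS of 18.5% and 19.04% in the treated libraries. PRDX6, with UAAG, had 0 and 1 reads untreated and 58 and 43 reads with G418, or 11.4% and 9.90%. The treated values lay above the untreated ones in both genes, and each sat near the middle of transcripts with its own signal, above 53.7% of 445 UAGA transcripts and 51.8% of 490 UAAG transcripts. With a single untreated read behind it, the pooled ratio was 43.9 for PRDX3 (95% exact interval 7.55 to 1764) and 90.7 for PRDX6 (15.9 to 3616). Fitted log2 changes were 5.17 for PRDX3 (SE 0.77, edgeR adjusted p = 1.5e-10) and 6.20 for PRDX6 (SE 0.62, edgeR adjusted p = 4.0e-22).

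SOD1 and TXN, the members with the shortest windows, had the highest mean RRTS in untreated cells, TXN at 4.66% ± 0.193 and SOD1 at 3.28% ± 0.688 (SD, n = 2), but the untreated range of PRDX4 (0% to 6.47%) held the values of both, and pooled over libraries PRDX4 (4.61%) lay between TXN (4.72%) and SOD1 (3.06%). The ranges of SOD1 and CAT, at 1.54% to 3.56%, overlapped as well. SOD1 had 4 and 2 reads untreated and 17 and 14 reads with G418, an RRTS of 2.80% and 3.77% against 14.2% and 14.2%. Its reads rose 4.64 times per CDS read (95% exact interval 1.91 to 13.6), with a log2 change of 2.17 (SE 0.63, edgeR adjusted p = 0.00122). Without untreated replicate A, the deeper library, SOD1 was not called (log2 change 1.88, adjusted p = 0.0569). TXN had 14 and 5 reads untreated, an RRTS of 4.80% and 4.53%, and 24 and 12 reads with G418, an RRTS of 10.1% and 5.98%. The ratio for TXN was 1.74 (95% exact interval 0.970 to 3.21), and the log2 change of 0.79 (SE 0.44) did not pass the test (edgeR adjusted p = 0.0881). Of the 2827 transcripts tested, 5.24% had a smaller log2 change than TXN.

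The fitted size of the rise rested on few untreated reads in several members. Leaving out untreated replicate A or B gave log2 changes of 3.59 and 7.85 for PRDX3, 4.57 and 8.79 for PRDX6, 7.64 and 1.75 for PRDX4, and 3.57 and 4.70 for CAT, all still called. The larger of each pair for PRDX3, PRDX6 and PRDX4 set the treated libraries against an untreated library with 0 reads. PRDX1 stayed between 4.98 and 5.13 over every library left out. With all 4 libraries, DESeq2 called the same 7 members higher, but with larger adjusted p-values than edgeR. The DESeq2 values were 0.0426 for PRDX4, 0.0212 for SOD1, 0.000662 for CAT and 0.000604 for PRDX3. For PRDX5, PRDX6 and PRDX1 they were 3.0e-05, 1.9e-05 and 5.0e-78, and for TXN, not called, 0.228. The median log2 change fitted by edgeR for the 8 members was 4.64, or 4.19 with PRDX5 placed at its bound, beside 3.18 over all transcripts tested. Most members met the read minimum only with their G418 reads, and PRDX3 and PRDX6 had 1 untreated read each. The medians are therefore a description and do not show a larger rise in the members.

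**Figure D3:**
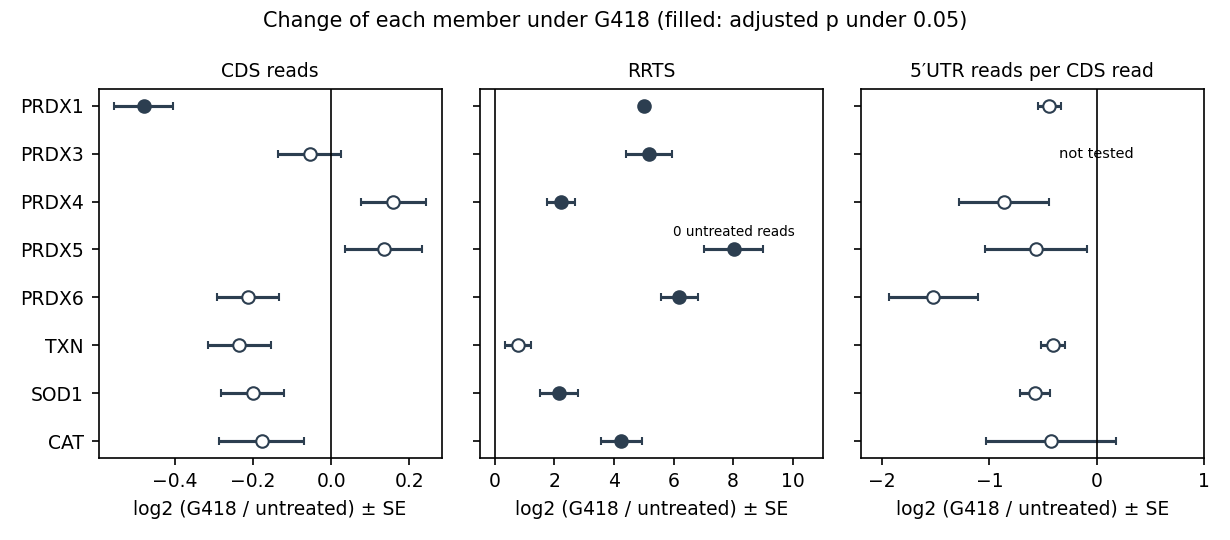
Fitted log2 change of G418 over untreated for the 8 members in CDS reads (left), RRTS (middle) and 5′UTR reads per CDS read (right), each panel with its own axis, bars as SE and filled points for an adjusted p under 0.05. PRDX1 is the only filled point in CDS reads, TXN the only open point in RRTS, and no point is filled for the 5′UTR, where PRDX3 was not tested.

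The partner lists were given the same test of RRTS. Of the 22 partner genes with at least 10 reads past the NTC, 20 met that minimum only with their G418 reads (GPX8 and PARK7 are the exceptions), so these counts too are a description. In all, 6 of 8 genes of the thioredoxin system, 4 of 7 of the glutathione system, 4 of 4 of the NRF2 pathway and 3 of 3 superoxide dismutase partners were called higher, and none was called lower. Their median log2 changes were 2.35, 3.27, 3.36 and 2.31. Over all transcripts tested, 82.6% were called higher. The RRTS calls of TXNIP and GLRX5, counted here, were lost with DESeq2 (adjusted p = 0.0722 and 0.0734), over the whole 3′UTR (0.0732 and 0.724), and in edgeR without either G418 library or without untreated replicate A.

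Ribosomes that pass the first in-frame 3′TC as well would leave reads further down the 3′UTR. Reads found there need not come from such passage, above all in untreated cells, and their frame was not tested. TXN had 57 and 17 reads after its first 3′TC in the untreated libraries and 36 and 38 with G418. Per 1000 CDS reads these were 10.3 and 8.10 untreated and 7.96 and 9.97 with G418, and the groups overlapped. Over the whole 3′UTR, TXN reads per CDS read changed by 0.13 on the log2 scale (SE 0.23, edgeR adjusted p = 0.611), and the other 7 members were called higher. PRDX3 had 17 and 2 reads past its 3′TC untreated and 99 and 67 with G418, or 3.76 and 1.08 against 23.2 and 17.9 per 1000 CDS reads, without overlap.

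The density after the 3′TC was low beside the density before it in treated cells. Pooled over the G418 libraries it was 11.2% of the density before the 3′TC in PRDX3, 9.46% in TXN, 7.01% in PRDX1, 3.81% in SOD1 and 3.51% in PRDX6. The stretch after the first 3′TC ran to the end of the 3′UTR, past any later in-frame stop codons. These values therefore do not measure passage of the first 3′TC alone. The counted stretch was 23 nt in PRDX1, 326 nt in TXN, 335 nt in SOD1, 727 nt in PRDX3 and 877 nt in PRDX6. That of PRDX1 is shorter than an RPF of 28 to 35 nt, so its density may be undercounted, which was not tested. In-frame 3′TCs, with the first included, numbered 20 in PRDX3, 16 in PRDX6, 15 in CAT and 13 in SOD1. TXN had 6, PRDX1 had 2 and PRDX4 had 1. PRDX1 had 9 reads after its 3′TC beside 1389 before it. CAT had 0 reads after its 3′TC in the 2 G418 libraries, a count that allows up to 3, and 49 before it. PRDX4 had 3 reads over the 20 nt counted there, and PRDX5 has no in-frame 3′TC.

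**Figure D4:**
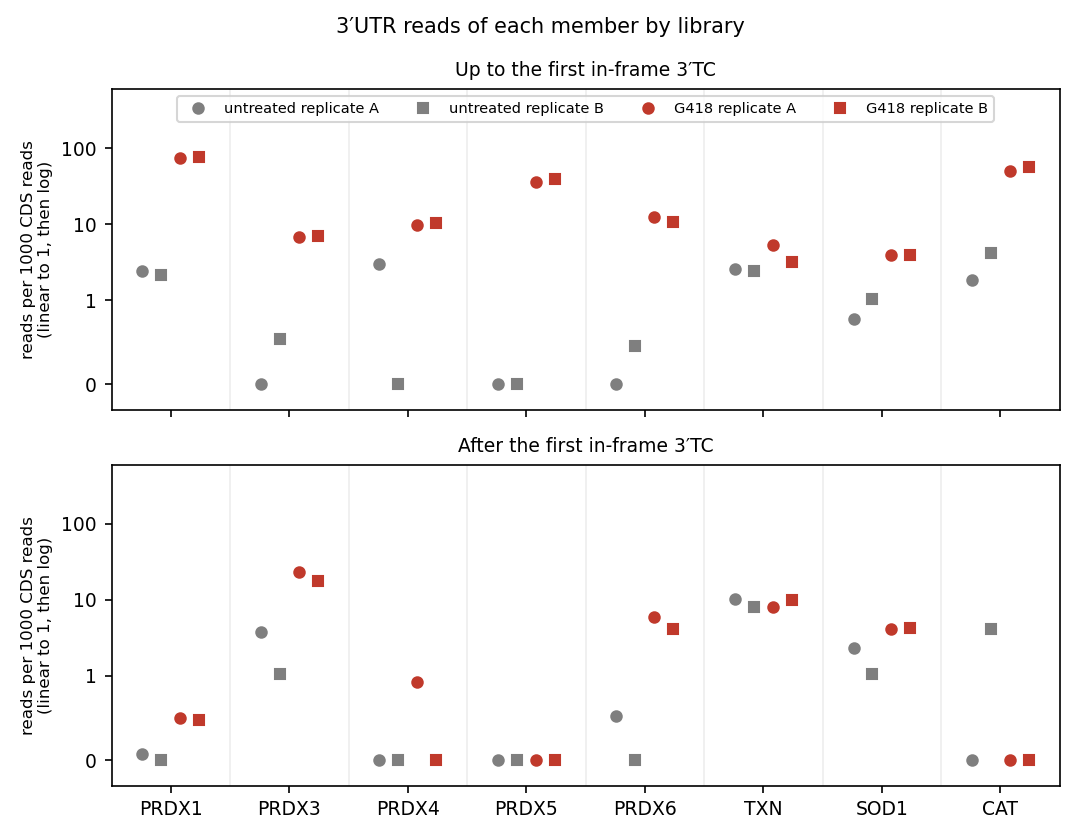
3′UTR reads per 1000 CDS reads of the 8 members by library, before the end of the first in-frame 3′TC (top) and after it (bottom), with axes linear up to 1 and logarithmic above. PRDX5 has no in-frame 3′TC, so all its 3′UTR reads stand in the top panel and its bottom points measure no passage. Points of TXN after the 3′TC lie between 7.96 and 10.3 in all 4 libraries, while those of PRDX3 are higher in both G418 libraries.

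The last readout was the 5′UTR, where RPFs can come from upstream reading frames or from ribosomes near the start codon. Relative to CDS reads, the fitted log2 change of 5′UTR reads was below 0 in all 7 members tested, and none passed the test (edgeR, with backgrounds of 1.7% of 3656 transcripts lower and 0.0274% higher). DESeq2 called none either, but it gave no adjusted p for PRDX4, PRDX5 and CAT. Over all transcripts tested, 62.8% had a negative log2 change. The median was -0.56 over the members and -0.16 over all transcripts.

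PRDX1 had 50.9 and 51.9 5′UTR reads per 1000 CDS reads untreated and 36.8 and 39.0 with G418, close within each condition and without overlap (log2 change -0.44, SE 0.11, edgeR adjusted p = 0.0627). SOD1 had 81.5 and 84.8 untreated and 56.7 and 54.5 with G418, also without overlap (-0.58, SE 0.14, edgeR adjusted p = 0.0571). TXN had 135 and 160 untreated and 106 and 116 with G418 (-0.40, SE 0.11, edgeR adjusted p = 0.0918). In these genes each treated library lay below each untreated one.

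PRDX6 had 13.6 and 36.2 5′UTR reads per 1000 CDS reads in untreated replicates A and B against 6.34 and 9.89 with G418 (-1.52, SE 0.41, edgeR adjusted p = 0.0918). Its untreated libraries differed more than its treated ones, and the log2 change was -2.17 without untreated replicate A and -0.76 without untreated replicate B. PRDX4 had 7.93 and 13.1 untreated against 6.77 and 3.79 with G418 (-0.86, SE 0.42, edgeR adjusted p = 0.389). PRDX5 and CAT had log2 changes of -0.56 and -0.42, from at most 14 reads in any library. PRDX3, with 5 reads in all, was not tested. Without untreated replicate A, then without untreated replicate B, the log2 change was -0.45 and -0.43 for PRDX1, -0.61 and -0.55 for SOD1, and -0.52 and -0.29 for TXN.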

How the data were processed

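The authors removed duplicate reads by sequence and molecular identifier, removed noncoding RNA, aligned the rest to hg38 with STAR guided by GENCODE version 30, kept 1 alignment of reads with several, and assigned RPFs of 28 to 35 nt to a single transcript per gene. They deposited raw counts per region, RPM values per library, densities in RPKM (RPM per kb, without the first 18 and last 15 nt of the CDS) and ratios, of which RRTS was used. The authors' 5′UTR densities are a score not used here. Whole reads were recovered from the deposited RPM (100% of values whole within 0.01), and deposited counts equal them or lie 1 below.

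CDS reads were tested on deposited counts with edgeR 4.0.16 (quasi-likelihood, TMM, filterByExpr), RRTS on recovered reads before the 3′TC with log(CDS reads + 0.5) as offset (at least 10 such reads, and 128 mRNA reads per condition), and 5′UTR reads likewise (at least 20, and 128 CDS reads per condition). All used Benjamini-Hochberg adjustment over all transcripts at 0.05. SE is the log2 change divided by the root of F. DESeq2 1.42.0, a replicate block, other filters and scalings, the whole 3′UTR and single libraries left out were alternatives. Fits were tested on simulated data. Depth per library was 2440204 to 6082600 mRNA reads. Intervals are exact (Clopper-Pearson, 95%) and, like the floor of 3 reads, cover counting error only. Named genes are the 10 members, TXNRD1, SRXN1, TXNIP, NQO1, HMOX1, KEAP1 and NFE2L2, and up to 3 rises and 3 falls among partner lists. Members and lists were chosen with earlier results of these data known. Versions also include R 4.3.3, scipy 1.17.1, numpy 2.4.6, pandas 2.3.3 and matplotlib 3.10.9.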

Additional observations from a re-analysis of the deposited data

How the results depend on the processing

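In CDS reads, transcripts called higher and lower numbered 451 and 273, against 109 and 134 with DESeq2, 887 and 120 with library totals only, and 265 and 141 over transcripts listed in any table. Leaving out 1 library gave 57 to 990 higher and 15 to 1092 lower, with 0 to 2 members higher and 0 to 4 members lower. Library totals only put 1 member higher and turned PRDX3 to 0.048. KEAP1 ranged from -0.029 (without untreated replicate A) to 0.13 with 1 library left out. For RRTS, transcripts called higher numbered 1496 to 2265 and lower 1 to 2 with 1 library left out, with 6 to 7 members higher. In the main fit 2336 were higher, against 1731 with DESeq2 and 1852 with a replicate block, and 7 members in each. DESeq2 called 1 lower, a minimum of 20 reads left 1536 higher of 1662 tested, and the whole 3′UTR gave 10 lower. In the 5′UTR, leaving out 1 library gave 0 to 51 transcripts higher, 11 to 357 lower and 0 to 4 members lower, and a minimum of 50 reads left 0 higher. Fits without an untreated library take their spread from the G418 pair, whose replicates differed less (chi-square per degree of freedom 1.35, against 4.05 for the untreated pair), and the lone library is assumed to vary alike. Reads before the 3′TC exist here as RPM only, so RRTS could not be refitted on deposited counts. Over the whole 3′UTR, deposited counts called the same number of members (7) as recovered reads. The letters A and B are shared between conditions without a stated common batch (r of deviations between same-lettered libraries 0.261 over 5749 transcripts). With the letter as a replicate block, 452 transcripts and 2 members (PRDX1, and TXN at adjusted p = 0.0325) were called lower in CDS reads, and 6 transcripts higher and 1 member lower (PRDX6, adjusted p = 0.0084) in the 5′UTR. The RRTS calls of TXNIP and GLRX5 were not made with it (adjusted p = 0.0798 and 0.0894). Depth limits the RRTS of 4 members (PRDX3, PRDX5, PRDX6 and CAT), which had at most 2 reads in both untreated libraries together.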
